A study of Mus musculus with 30 samples.

Results

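The gene Cdkn1a encodes p21, an inhibitor of cyclin-dependent kinases, and it was followed in mouse liver together with 9 other genes known for growth restraint or as targets of the tumour suppressor p53. The 10 genes are Cdkn1a, Btg2, Gadd45a, Gadd45b, Gadd45g, Mdm2, Ccng1, Sesn1, Trp53inp1 and Phlda3. They were found by symbol in the deposited count table, which lists 17990 genes, and all 10 passed the filter on low counts in both sexes. The genes were chosen by measured values, since Cdkn1a, Btg2 and Gadd45g had been seen to stand above control in exposed females, so the female values against control are given here as a description, without a test. The question put to the set was whether p21 moved with other p53 targets.

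RNA was sequenced from livers of the offspring of ICR mouse dams at 10 weeks of age, with 3 libraries per group and sex. The dams were the animals dosed, and each group of offspring is named by the exposure of its dams. Dams drank water with 2,4-BPS, BPSIP, BPS or E2, and control dams drank water with the solvent alone. The water held 10 ng/mL of the chemical and 0.001% ethanol, and control water held 0.001% ethanol too. Intake was held at 5 µg/kg daily and ran for about 40 days, through pregnancy until weaning, with 8 dams in each group. Each library came from the liver of 1 animal, and the animals of a group came from different dams. BPS is bisphenol S, a bisphenol with a sulfone bridge, and 2,4-BPS is an isomer with a hydroxyl group at another ring position. BPSIP carries an isopropyl group on 1 of the hydroxyl groups of BPS, and E2 is estradiol, the main female estrogen.

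The protein p53 is a transcription factor that stays scarce in unstressed cells because the ubiquitin ligase Mdm2 marks it for breakdown. Damage to DNA and other stress let it accumulate, and it then switches on a shared group of genes, of which Cdkn1a and Mdm2 are among the best known. Cdkn1a also responds to other signals without p53, including glucocorticoids, clock factors and nutrient state, and in liver it restrains hepatocyte division.

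The 30 libraries totalled between 29711711 and 37719069 counts each. CPM are counts scaled to a common library size, and they are the levels used here, with FPKM, which also divide by gene length, where genes are compared with each other. Replicate libraries are separate animals of a group. The sex labels were checked on 4 Y-linked genes, whose summed level was at most 0.543 CPM in any female library and 131 to 169 CPM in exposed male libraries. The 3 libraries labelled male control gave 84.7 to 95.3 CPM, and 14 female-specific liver genes summed to 3716 to 4291 CPM there, against 15.7 to 45.3 CPM in exposed males and 6267 to 9196 CPM in females. These libraries therefore go against their label in part. Each called male difference of the 10 genes from them is given beside a comparison that leaves them out. It sets a group against the mean of the other 3 exposed male groups, which is not a difference from an unexposed level. Hepatocyte markers were present in every group, with all 12 listed genes detected and a sum of 97466 to 181969 CPM over the 30 libraries. In whole liver, fewer cells of a type and less RNA per cell cannot be told apart.

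Promoter windows are shown for Cdkn1a and for Gadd45b, Gadd45g and Btg2, to set their start regions side by side. Among the other 9 genes these 3 had the highest Pearson correlation of log2 CPM with Cdkn1a over the 15 female libraries. Trp53inp1 came next at 0.80 and had no window. By rank correlation it passed Gadd45g, and over the 12 exposed female libraries it passed Btg2. Each window runs from 250 bases before to 50 bases after an annotated start, from RefSeq on GRCm38.p6, and reads 5′ to 3′ on the strand of the gene. Capitals mark matches to 4 motifs searched on both strands: CATG followed after 6 bases of any kind by CATG, a form that core letters of a p53 element can take; CACGTG, the E-box bound by clock and Myc factors; TGACGTCA, the cyclic AMP response element; and TATAAA, the TATA box.
Cdkn1a, upstream start, chr17:29090729-29091028, plus strand: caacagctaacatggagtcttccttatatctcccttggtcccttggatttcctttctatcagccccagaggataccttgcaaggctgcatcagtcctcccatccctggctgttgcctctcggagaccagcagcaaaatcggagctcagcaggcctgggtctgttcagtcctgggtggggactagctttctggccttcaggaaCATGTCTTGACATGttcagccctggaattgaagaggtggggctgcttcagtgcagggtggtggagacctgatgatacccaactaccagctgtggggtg
Gadd45b, chr10:80929841-80930140, plus strand: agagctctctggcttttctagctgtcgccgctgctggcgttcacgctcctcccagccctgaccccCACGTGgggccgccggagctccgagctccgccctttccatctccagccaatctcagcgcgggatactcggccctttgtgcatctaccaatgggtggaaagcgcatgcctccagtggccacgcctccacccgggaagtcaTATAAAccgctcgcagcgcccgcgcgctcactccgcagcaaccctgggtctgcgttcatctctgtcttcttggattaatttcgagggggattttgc
Gadd45g, chr13:51846425-51846724, plus strand: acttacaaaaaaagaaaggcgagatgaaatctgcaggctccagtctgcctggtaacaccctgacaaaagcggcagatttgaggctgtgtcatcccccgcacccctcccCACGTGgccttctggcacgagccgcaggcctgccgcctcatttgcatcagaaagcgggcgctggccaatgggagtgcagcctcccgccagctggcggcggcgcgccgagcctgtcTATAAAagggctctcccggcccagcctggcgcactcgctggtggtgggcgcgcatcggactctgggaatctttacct
Btg2, chr1:134079106-134079405, minus strand: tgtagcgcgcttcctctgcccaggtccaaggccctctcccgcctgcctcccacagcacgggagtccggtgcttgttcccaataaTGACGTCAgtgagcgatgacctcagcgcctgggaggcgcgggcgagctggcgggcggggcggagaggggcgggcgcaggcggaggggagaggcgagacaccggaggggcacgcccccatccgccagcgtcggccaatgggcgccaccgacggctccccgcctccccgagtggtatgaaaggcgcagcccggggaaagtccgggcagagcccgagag
In the Cdkn1a window the paired motif lies 48 to 35 bases before the start. The window of the downstream Cdkn1a start, chr17:29093519-29093818, plus strand, lies 2790 bases further on and holds none of the 4 motifs. Gadd45b and Gadd45g each hold an E-box, at 185 to 180 and 142 to 137 bases before the start, and a TATA box, at 46 to 41 and 27 to 22 bases before it. Btg2 holds a cyclic AMP response element 166 to 159 bases before its start. Of 32851 windows in the RefSeq table, 0.712% hold the paired motif, 7.15% the E-box, 1.79% the cyclic AMP response element and 13.6% the TATA box. Windows were found for 9 of the 10 genes, and those of Gadd45a, Mdm2, Ccng1, Sesn1 and Phlda3 hold none of the motifs. Among 28 other p53 target genes with a window, 0 hold the paired motif and 6 hold the E-box. A match is a string of letters, and no binding was measured. Other forms of a p53 element and bases outside the windows were not searched. A window without the paired motif therefore does not show that a gene lacks such an element.

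Cdkn1a had the widest range of the 10 genes. In females it had 15.1, 12.7 and 12.3 CPM under 2,4-BPS, 5.46, 5.44 and 5.92 CPM under BPSIP, 30.9, 27.4 and 26.8 CPM under BPS and 42.4, 43.3 and 37.4 CPM under E2, against 2.63, 2.88 and 3.76 CPM in control. The order from the top was E2, BPS, 2,4-BPS, BPSIP and control, and no group overlapped its neighbour. The highest group mean was 13.3 times the lowest. Against control the log2 fold changes were 2.11 ± 0.12 for 2,4-BPS, 0.85 ± 0.13 for BPSIP, 3.20 ± 0.12 for BPS and 3.72 ± 0.12 for E2 (± standard error of the fit, n = 3 per group). On the length-scaled measure the E2 females held 21.4, 20.7 and 18.4 FPKM, against 1.35, 1.5 and 1.93 FPKM in control females.

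In males Cdkn1a had 15.5, 16.9 and 15.1 CPM under 2,4-BPS, 11.3, 8.93 and 7.09 CPM under BPSIP, 13, 14.4 and 10.2 CPM under BPS and 24.8, 26.8 and 26.7 CPM under E2. The libraries labelled male control held 7.43, 7.77 and 7.63 CPM. E2 males stood above all others, 2,4-BPS males came next without overlap, and the BPS and BPSIP groups overlapped each other, as did BPSIP and the labelled control. Against the labelled control, Cdkn1a rose under 2,4-BPS by 1.06 ± 0.13 (edgeR quasi-likelihood test, adjusted p = 1.38e-10), under BPS by 0.71 ± 0.13 (adjusted p = 4.66e-06) and under E2 by 1.79 ± 0.13 (adjusted p = 9.86e-20) on the log2 scale. The BPSIP difference was 0.27 ± 0.13 (95% interval 0.01 to 0.53, edgeR adjusted p = 0.108), and without BPSIP library 3 it was 0.42 (edgeR adjusted p = 0.0140). Set against the mean of the other 3 exposed male groups, which leaves the labelled control out, E2 males remained higher (1.11) and BPS males were lower (-0.33). On that measure BPSIP males were lower too (-0.92), and 2,4-BPS males differed by 0.14, which did not pass.

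**Figure D1:**
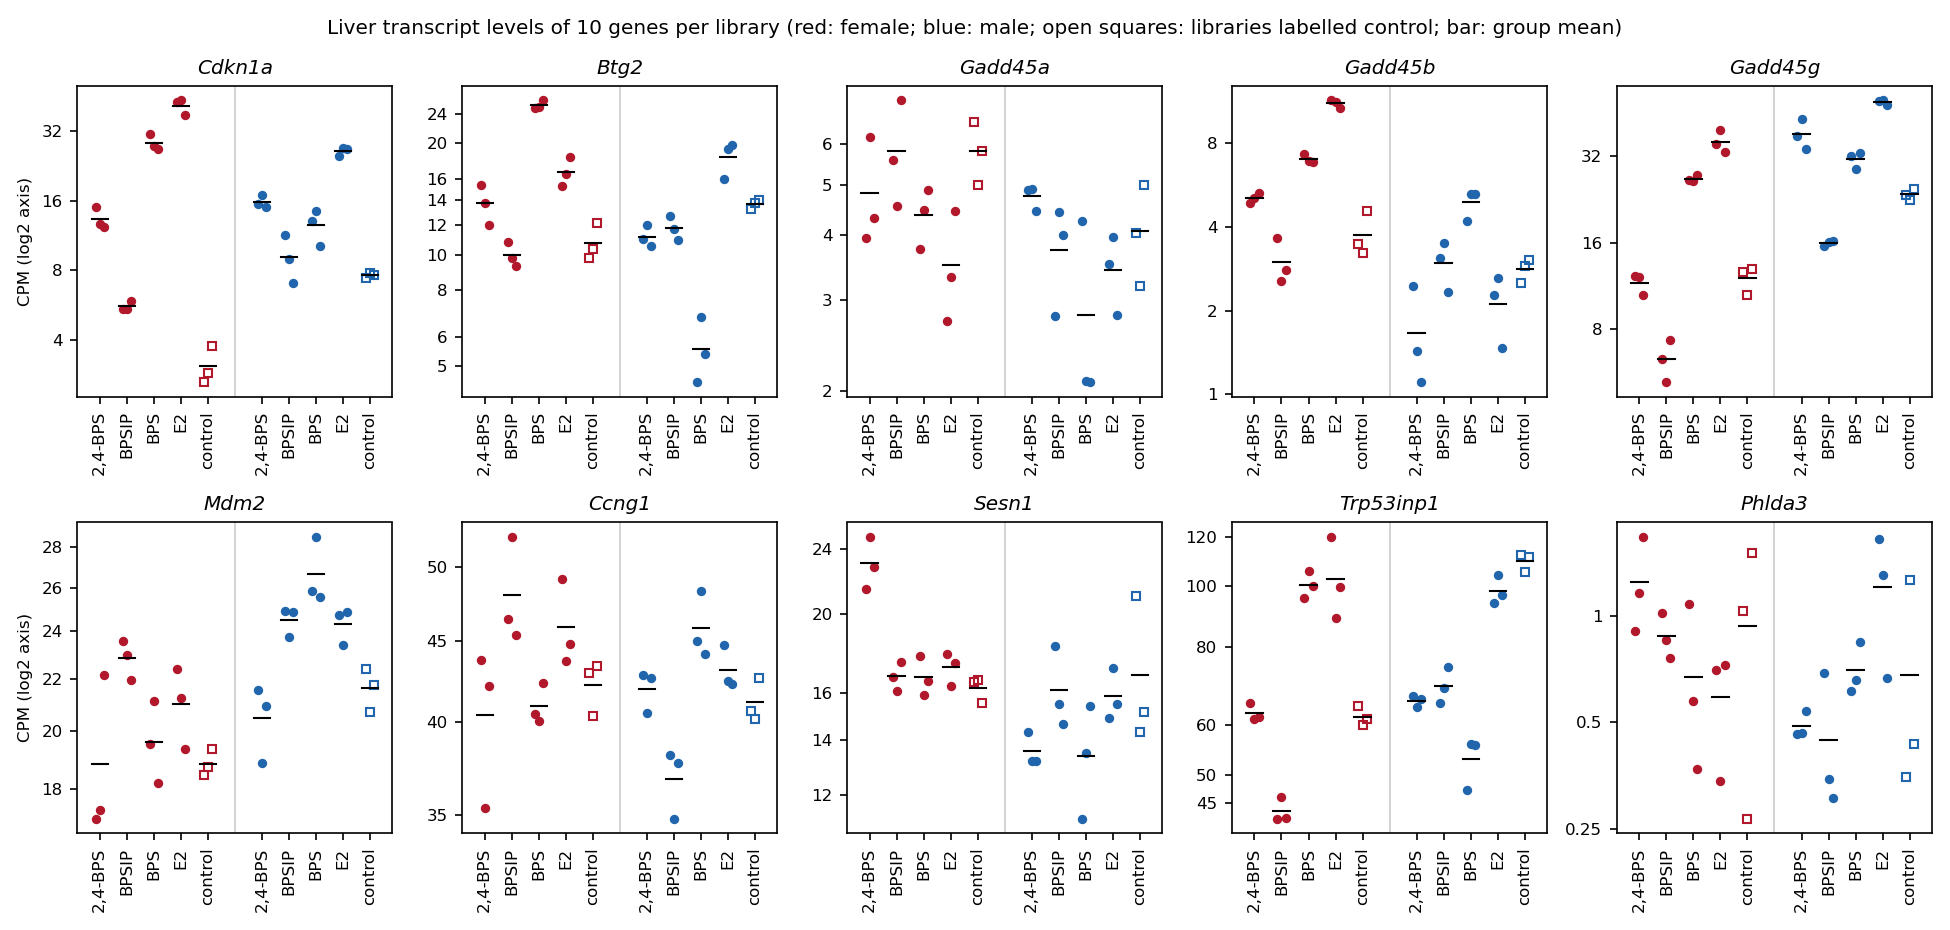
Level of each of the 10 genes in the 30 libraries, as CPM on a log2 axis whose range differs between panels; red is female, blue is male, open squares are libraries labelled control and bars are group means. Female Cdkn1a runs from 2.63 CPM in a control library to 43.3 CPM in an E2 library with no overlap between neighbouring groups, while Mdm2 and Ccng1 stay within 17.0 to 28.5 and 34.8 to 52.3 CPM.

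The Gadd45 genes encode small stress-induced proteins that bind cell cycle and MAP kinase regulators, and their 3 members did not run together. Gadd45g in females had 12.2, 12.2 and 10.5 CPM under 2,4-BPS, 6.29, 5.21 and 7.33 CPM under BPSIP, 26.6, 26.3 and 27.5 CPM under BPS and 35.4, 39.6 and 33.2 CPM under E2, against 12.7, 10.5 and 12.9 CPM in control. E2 and BPS females stood above control, BPSIP females stood below it, and 2,4-BPS overlapped it. The log2 fold changes were -0.05, -0.94, 1.16 and 1.58 in the same order of exposures, each with a standard error of 0.10 or 0.11. Males had 37.7, 43.2 and 33.9 CPM under 2,4-BPS, 15.6, 16.1 and 16.2 CPM under BPSIP, 32.1, 28.9 and 32.9 CPM under BPS and 49.8, 50.3 and 48.5 CPM under E2, against 23.5, 22.6 and 24.7 CPM in the labelled control. No male group overlapped its neighbour in the order E2, 2,4-BPS, BPS, labelled control and BPSIP. Gadd45g rose in 2,4-BPS males by 0.70 ± 0.08 (edgeR adjusted p = 5.13e-11) and in E2 males by 1.08 ± 0.08 (adjusted p = 1.62e-18). It also rose in BPS males by 0.39 ± 0.08 (edgeR adjusted p = 5.52e-05) and fell in BPSIP males, with -0.56 ± 0.09 (adjusted p = 1.73e-07). Against the other 3 exposed male groups these values were 0.39 for 2,4-BPS, -1.28 for BPSIP, -0.016 for BPS and 0.90 for E2. BPS males thus lay near the mean of the other exposed males, which does not say whether they rose over an unexposed level.

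Gadd45b in females had 4.9, 5.08 and 5.31 CPM under 2,4-BPS, 3.66, 2.56 and 2.8 CPM under BPSIP, 7.35, 6.89 and 6.84 CPM under BPS and 11.5, 11.2 and 10.7 CPM under E2, against 3.48, 3.22 and 4.56 CPM in control. The E2, BPS and 2,4-BPS groups stood above control without overlap, in that order, and BPSIP overlapped control from below. Log2 fold changes were 0.45 ± 0.16 for 2,4-BPS, -0.32 ± 0.17 for BPSIP, 0.91 ± 0.16 for BPS and 1.56 ± 0.16 for E2. In males the order was another one. Gadd45b had 2.45, 1.43 and 1.1 CPM under 2,4-BPS, 3.09, 3.51 and 2.34 CPM under BPSIP, 4.22, 5.26 and 5.26 CPM under BPS and 2.28, 2.62 and 1.46 CPM under E2, against 2.52, 2.89 and 3.04 CPM in the labelled control. BPS males were highest and overlapped no other group, and the other groups overlapped their neighbours. Gadd45b rose in BPS males by 0.79 ± 0.25 (edgeR adjusted p = 0.0089) and fell in 2,4-BPS males, with -0.76 ± 0.27 (adjusted p = 0.0197), while E2 males had -0.40 ± 0.26 (adjusted p = 0.269). The 2,4-BPS call was lost without control library 3 or 2,4-BPS library 2 or 3 (-0.70 to -0.53). Without the labelled control, against the other 3 exposed male groups, the values were 1.14 for BPS and -0.92 for 2,4-BPS. Gadd45a, at 2.08 to 7.27 CPM over all libraries, ran the other way in females. It had 2.73, 3.32 and 4.44 CPM under E2 against 6.59, 4.98 and 5.81 CPM in control, a log2 fold change of -0.73 ± 0.20, and its other 3 female groups lay at -0.26, -0.00 and -0.40.

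Btg2, an antiproliferative protein that binds the mRNA deadenylation complex, peaked in a different female group. It had 15.4, 13.8 and 12 CPM under 2,4-BPS, 10.8, 9.76 and 9.31 CPM under BPSIP, 24.9, 25.1 and 26.1 CPM under BPS and 15.3, 16.5 and 18.4 CPM under E2, against 9.81, 10.3 and 12.2 CPM in control females. The BPS group stood above all others, E2 stood above control, and the order E2, 2,4-BPS, control and BPSIP held an overlap at each step. Log2 fold changes were 0.36 ± 0.11 for 2,4-BPS, -0.11 ± 0.11 for BPSIP, 1.25 ± 0.11 for BPS and 0.63 ± 0.11 for E2. Under the same compound, male Btg2 went the other way: BPS males had 4.51, 6.8 and 5.39 CPM, against 13.3, 13.8 and 14 CPM in the labelled control, with a log2 fold change of -1.31 ± 0.13 (edgeR adjusted p = 3.87e-13). The BPS males lay below every other male library, and against the other 3 exposed male groups the value was -1.29. E2 males had 16, 19.3 and 19.7 CPM and rose by 0.43 ± 0.12 (edgeR adjusted p = 0.00333), or 1.04 against the other exposed males. Btg2 had 11, 12 and 10.5 CPM in 2,4-BPS males and 12.7, 11.7 and 11 CPM in BPSIP males, and neither difference from the labelled control passed (-0.29 ± 0.12 and -0.21 ± 0.12).

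Trp53inp1, a p53-induced nuclear protein with a role in autophagy, lay at 8.35 to 22.7 FPKM. Females had 65.1, 61.4 and 61.8 CPM under 2,4-BPS, 42.4, 45.9 and 42.5 CPM under BPSIP, 95.7, 106 and 99.999 CPM under BPS and 120.1, 88.9 and 99.6 CPM under E2, against 64.4, 60.05 and 61.2 CPM in control. BPS and E2 females overlapped each other above control, 2,4-BPS overlapped control, and BPSIP lay below all others. The log2 fold changes were 0.03, -0.51, 0.71 and 0.73 in that order of exposures. Males had 66.7, 64.2 and 66.1 CPM under 2,4-BPS, 65.2, 68.7 and 74.3 CPM under BPSIP, 47.3, 55.9 and 55.8 CPM under BPS and 94.2, 104 and 96.7 CPM under E2, and the labelled control had 112, 106 and 111 CPM. The labelled control lay above every exposed male library and above every female library but 1 of E2 and 1 of BPS. Against it Trp53inp1 fell in all 4 exposed male groups, with -0.74 ± 0.06 for 2,4-BPS, -0.65 ± 0.06 for BPSIP, -1.06 ± 0.06 for BPS and -0.14 ± 0.06 for E2 (edgeR adjusted p = 1.87e-17, 3.28e-15, 1.29e-24 and 0.0447). The E2 call was lost without control library 1 or 3 or E2 library 1 or 3 (-0.13 to -0.12). Against the other 3 exposed male groups the values were -0.12 for 2,4-BPS, 0.00 for BPSIP, -0.55 for BPS and 0.67 for E2, so the E2 difference changed sign and those of 2,4-BPS and BPSIP did not pass.

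Mdm2 and Ccng1 had the smallest ratios between group means of the 10 genes. Mdm2, the ubiquitin ligase that limits p53 and is itself a p53 target, lay at 17.0 to 28.5 CPM in all 30 libraries, and its highest group mean was 1.41 times its lowest. Ccng1, which encodes cyclin G1, a p53 target that acts on Mdm2 through a phosphatase, lay at 34.8 to 52.3 CPM with a ratio of group means of 1.30. In the females with the highest Cdkn1a, those of the E2 group, Mdm2 had 22.4, 21.3 and 19.4 CPM against 18.5, 18.8 and 19.4 CPM in control (0.15 ± 0.10, 95% interval -0.04 to 0.35). Ccng1 had 49.2, 43.7 and 44.7 CPM under E2 against 42.9, 40.4 and 43.4 CPM in control (0.12 ± 0.08, 95% interval -0.04 to 0.27). Among females both genes were highest under BPSIP, the exposure with the lowest Cdkn1a: Mdm2 had 23.6, 23 and 22 CPM (0.28 ± 0.10 against control) and Ccng1 46.4, 52.3 and 45.4 CPM (0.18 ± 0.07). In males Mdm2 rose under BPS by 0.29 ± 0.09 (edgeR adjusted p = 0.00515; 0.19 against the other 3 exposed groups), and no other male value of Mdm2 or Ccng1 against the labelled control passed.

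Sesn1, a p53-induced inhibitor of mTORC1 signalling, stood out in a single group. Females of the 2,4-BPS group had 21.5, 24.9 and 22.9 CPM, above every other library of either sex, and control females had 16.5, 16.6 and 15.5 CPM (0.51 ± 0.09). The other 3 female exposures lay at 0.05 to 0.08 on the log2 scale against control. Males of the same exposure had 14.3, 13.2 and 13.2 CPM, against 21, 14.3 and 15.2 CPM in the labelled control, a log2 fold change of -0.31 ± 0.12 (edgeR adjusted p = 0.0383). Sesn1 also fell in BPS males, with -0.34 ± 0.12 (adjusted p = 0.0171). The 2,4-BPS call was lost without control library 1 or 2,4-BPS library 2 or 3 (-0.28 to -0.11) and the BPS call without control library 1 or BPS library 1 (-0.23 to -0.14). Against the other 3 exposed male groups neither passed (-0.15 and -0.20). Phlda3, a p53-induced repressor of Akt, was scarce, at 9 to 62 counts per library and 0.266 to 1.68 CPM. Its male differences from the labelled control had edgeR adjusted p-values of 0.271 to 0.977. Over the 8 exposed groups the 95% intervals of its log2 fold changes reached from -1.78 to 1.94, a wide range. Between the sexes it was called under 2,4-BPS, at 1.25 ± 0.394 CPM in females and 0.489 ± 0.0416 CPM in males (1.34 ± 0.53, edgeR adjusted p = 0.0299), a call lost without female 2,4-BPS library 3 or male 2,4-BPS library 1, 2 or 3 (1.07 to 1.42).

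Counted over the 4 female exposures, 20 of the 40 values of the 10 genes against control lay past an adjusted p of 0.05 over all genes, 17 higher and 3 lower, which is given as a description only. Over all 13874 tested genes the share called was 19.3% for 2,4-BPS, 38.6% for BPSIP, 16.8% for BPS and 21% for E2. Higher calls made up 10.9%, 19.4%, 9.32% and 10.4% of all genes and lower calls 8.42%, 19.2%, 7.5% and 10.6%. As these contrasts helped to choose the genes, the count is no test of them and nothing is read from it. Values counted there that fell short of the threshold when 1 library was left out were Btg2 under 2,4-BPS, without control library 1 or 2 or 2,4-BPS library 1 or 2 (0.27 to 0.35), and Gadd45b under 2,4-BPS, without control library 1 or 2 or 2,4-BPS library 1, 2 or 3 (0.35 to 0.47). So were those of Mdm2 and Ccng1 under BPSIP, without control library 1 or 2 or BPSIP library 1 or 2 (0.25 to 0.27) and without control library 1, 2 or 3 or BPSIP library 2 (0.12 to 0.20). Gadd45a under E2 did so without control library 1 or E2 library 1 (-0.63 to -0.57). In males 18 of 40 values against the labelled control passed, 9 higher and 9 lower, beside shares of 38.2%, 34.9%, 43.2% and 33.6% of 13474 genes. The calls per exposure were 5, 2, 7 and 4 of 10 in the same order, so the count for the 10 genes was near the share of all genes called. Against the mean of the other 3 exposed male groups 19 passed, 10 higher and 9 lower. The shares of all genes called there were 25.8%, 31.3%, 35.8% and 31.5% in the same order of exposures.

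**Figure D2:**
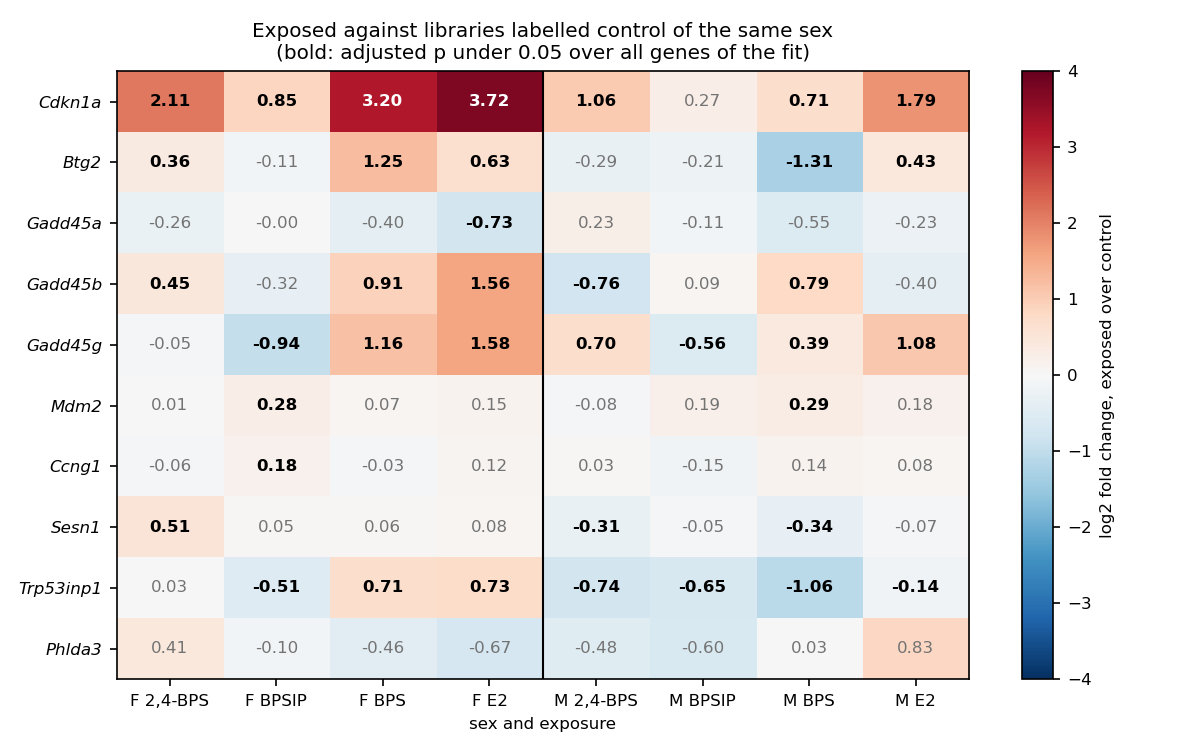
Log2 fold change of each of the 10 genes (rows) in 8 exposed groups (columns) over the libraries labelled control of the same sex; bold values passed an adjusted p of 0.05 over all genes of the fit. The Cdkn1a row runs from 0.85 to 3.72 in females and from 0.27 to 1.79 in males, while Mdm2 and Ccng1 stay between -0.15 and 0.29.

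Pairs of exposures compare the compounds with each other at the same dose and time and use no control library. In females 36 of 60 values of the 10 genes over 6 pairs passed, beside 19.5% to 39.3% of all genes in the single pairs. The same libraries had been seen when the genes were chosen. All female pairs, here and in the paragraphs on the isomers and on E2, are therefore a description, and their p-values are no independent test of these genes. BPSIP stood lowest of the exposures for 5 of the genes. Against BPS, the parent compound without the isopropyl group, BPSIP females were lower for Cdkn1a (-2.35 ± 0.11), Gadd45g (-2.11 ± 0.11), Btg2 (-1.36 ± 0.11), Gadd45b (-1.23 ± 0.16) and Trp53inp1 (-1.22 ± 0.08), with edgeR adjusted p-values from 4.06e-19 to 1.01e-07; the share of all genes called in this pair was 39.3%, with 20.1% lower. Mdm2 differed by 0.21 (95% interval 0.01 to 0.40) and Sesn1 by -0.01 (-0.20 to 0.17), and neither passed. Ccng1 was higher under BPSIP by 0.22 ± 0.08, a call lost without BPSIP library 2 or BPS library 1 or 2 (0.15 to 0.21).

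The isomers differed for 6 of the genes. In females 2,4-BPS was lower than BPS for Cdkn1a (-1.09 ± 0.10, edgeR adjusted p = 2.29e-10), Gadd45g (-1.21 ± 0.11), Btg2 (-0.89 ± 0.11) and Trp53inp1 (-0.68 ± 0.08). Sesn1 was higher under 2,4-BPS (0.46 ± 0.09, edgeR adjusted p = 2.44e-04). Gadd45b was lower, at -0.47 ± 0.16, and that call was lost without 2,4-BPS library 1, 2 or 3 or BPS library 1, 2 or 3 (-0.50 to -0.44). In this pair 19.5% of all genes were called, 9.23% being lower under 2,4-BPS. Mdm2 and Ccng1 did not pass, with 95% intervals of -0.26 to 0.13 and -0.18 to 0.13.

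Set against E2, every bisphenol was lower in females for Cdkn1a, with -1.61 ± 0.10 for 2,4-BPS, -2.87 ± 0.11 for BPSIP and -0.52 ± 0.10 for BPS (edgeR adjusted p = 2.51e-15, 7.84e-22 and 9.69e-05). The same held for Gadd45b (-1.12, -1.88 and -0.65) and Gadd45g (-1.62, -2.52 and -0.41). Btg2 differed in this respect, being higher under BPS than under E2 (0.61 ± 0.10, edgeR adjusted p = 1.78e-05). For Trp53inp1 the pair of BPS and E2 did not pass, with a difference of -0.02 (95% interval -0.17 to 0.13). Shares of all genes called were 29.8%, 38.4% and 25.6% in the same order, and 13.4% were higher under BPS than under E2. Among these pairs, Btg2 in 2,4-BPS minus E2 (-0.27) was lost without 2,4-BPS library 2 or 3 or E2 library 3 (-0.29 to -0.19). Between the analogs, 2,4-BPS exceeded BPSIP for Cdkn1a (1.26 ± 0.11), Gadd45g (0.90 ± 0.11), Gadd45b (0.76 ± 0.16), Trp53inp1 (0.53 ± 0.08), Btg2 (0.47 ± 0.11) and Sesn1 (0.47 ± 0.09), where 35.5% of all genes were called. Mdm2 (-0.27) and Ccng1 (-0.24) were called lower under 2,4-BPS than under BPSIP. The Mdm2 call was lost without 2,4-BPS library 1 or 2 or BPSIP library 1 or 2 (-0.27 to -0.20). The Ccng1 call was lost without 2,4-BPS library 2 or BPSIP library 2 (-0.18 to -0.17).

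The male pairs, which use no library labelled control, gave 33 calls of 60 beside 26.4% to 37.5% of all genes, 11 higher and 22 lower. E2 exceeded each bisphenol for Cdkn1a in males too, with -0.73 ± 0.12 for 2,4-BPS minus E2, -1.52 ± 0.12 for BPSIP minus E2 and -1.08 ± 0.12 for BPS minus E2 (edgeR adjusted p = 7.30e-07, 8.31e-17 and 1.22e-11). The same 3 pairs gave Gadd45g values of -0.38, -1.64 and -0.69, Btg2 values of -0.72, -0.64 and -1.75, and Trp53inp1 values of -0.59, -0.51 and -0.92, all of which passed. Shares of all genes called were 28.4%, 26.4% and 37.5%. BPSIP males were lower than 2,4-BPS males for Cdkn1a, where 2,4-BPS minus BPSIP was 0.79 ± 0.12 (edgeR adjusted p = 3.62e-07), and for Gadd45g (1.25 ± 0.08), with 31.3% of all genes called. The isomers stood in the other order than in females: Cdkn1a was higher in 2,4-BPS than in BPS males by 0.35 ± 0.12 (edgeR adjusted p = 0.0219), a call lost without 2,4-BPS library 2 or BPS library 3 (0.23 to 0.30). Btg2 was higher under 2,4-BPS by 1.02 ± 0.13 and Gadd45b lower, at -1.55 ± 0.26 (edgeR adjusted p = 3.49e-09 and 2.73e-06). BPSIP males were lower than BPS males for Cdkn1a (-0.44 ± 0.13), lost without BPSIP library 3 or BPS library 2 (-0.34 to -0.29), and for Gadd45g (-0.95 ± 0.08), and higher for Btg2 (1.11 ± 0.13). Gadd45b and the less mobile genes rested more often on single libraries: the calls for Gadd45b in 2,4-BPS minus BPSIP (-0.85) and BPSIP minus BPS (-0.70) were lost without 2,4-BPS library 2 or 3 or BPSIP library 2 (-0.75 to -0.62) and without BPSIP library 3 or BPS library 2 or 3 (-0.66 to -0.56).

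Female and male livers of the same exposure differed in which of the genes were high. Gadd45g was lower in females than in males in all 5 groups, with -1.72 under 2,4-BPS, -1.35 under BPSIP, -0.22 under BPS, -0.46 under E2 and -0.97 between the libraries labelled control. All 5 passed (edgeR adjusted p from 3.18e-24 to 0.0418), and the BPS one was lost without female BPS library 1, 2 or 3 or male BPS library 1 or 3 (-0.23 to -0.17). Cdkn1a went both ways: it was higher in females under BPS (1.18 ± 0.12, edgeR adjusted p = 3.96e-13) and E2 (0.65 ± 0.11, adjusted p = 1.63e-06) and lower in females under BPSIP (-0.70 ± 0.13, adjusted p = 5.41e-06). Under 2,4-BPS the sexes differed by -0.25 (95% interval -0.48 to -0.01), which passed only without female library 1 (-0.34). Between the libraries labelled control it was lower in females, at -1.30 ± 0.14 (edgeR adjusted p = 2.24e-11). Btg2 was higher in females under BPS by 2.19 ± 0.12, and Gadd45b was higher in females under E2 by 2.39 ± 0.21 and under 2,4-BPS by 1.62 ± 0.22 (edgeR adjusted p = 1.34e-23, 5.90e-15 and 5.21e-09). Of 50 such values 25 passed, beside 30.2% to 51.2% of all genes. The exposed female libraries here are those in which Cdkn1a, Btg2 and Gadd45g had been seen to stand above control. The choice thus favours higher female levels of these genes, and such values are no independent support.

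The difference between the sexes in the exposure effect itself was tested for each compound, and 17 of 40 values passed, 15 with a larger female value. These differences contain the female values against control that chose the genes, so the choice favours a larger female effect, and their direction is no independent support. Per exposure the counts were 6, 3, 4 and 4 of 10 for 2,4-BPS, BPSIP, BPS and E2, beside 34.8%, 36.3%, 30.9% and 16.9% of all genes. For Cdkn1a the female effect exceeded the male one by 2.47 ± 0.18 under BPS and 1.95 ± 0.18 under E2. These values take the libraries labelled male control as the male baseline. With each exposure set against the mean of the other 3 in both sexes, which uses neither control group, they were 1.28 and 0.58 and still passed (edgeR adjusted p = 1.04e-11 and 3.38e-04). Under 2,4-BPS and BPSIP the Cdkn1a value turned round on that measure, with -0.62 in place of 1.05 and -1.23 in place of 0.59. Btg2 under BPS held on both measures (2.53 and 2.21), as did Gadd45b under E2 (1.98 and 1.67) and Trp53inp1 under BPS (1.75 and 1.15).

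**Figure D3:**
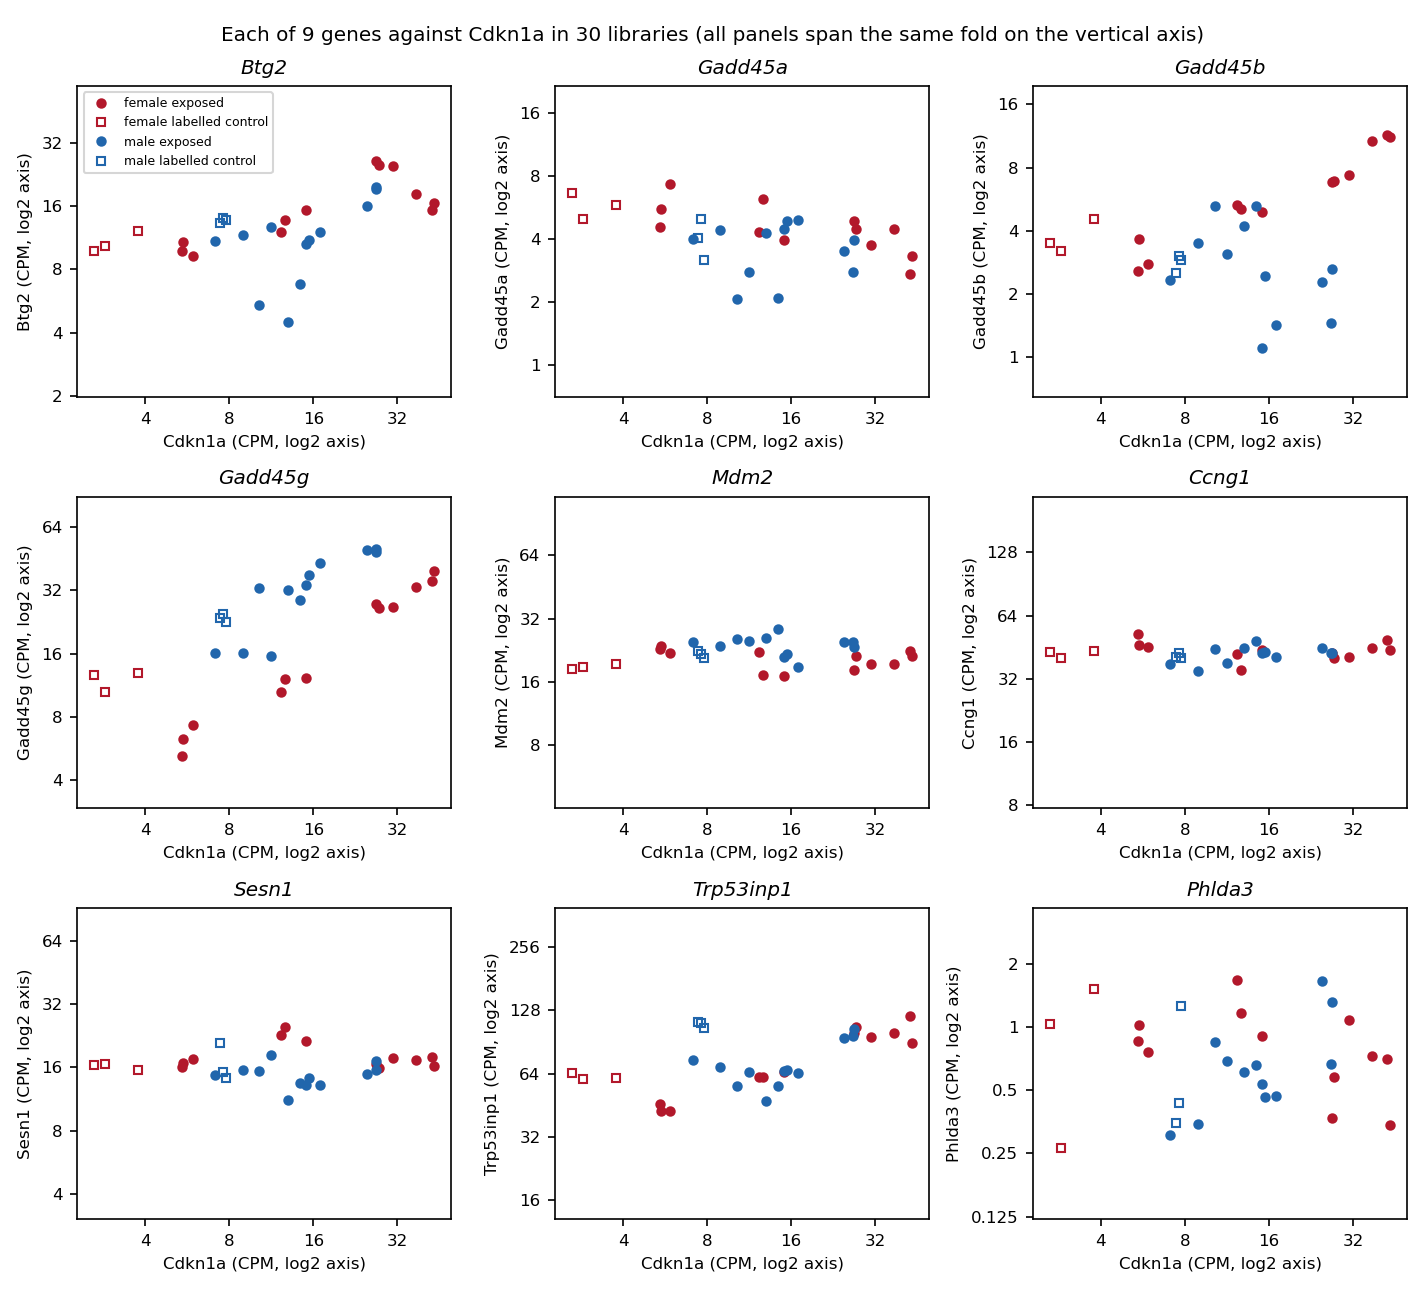
Level of each of the other 9 genes (vertical, CPM, log2 axis, every panel spanning the same fold) against Cdkn1a (horizontal, CPM, log2 axis) in the 30 libraries; red is female, blue is male, open squares are libraries labelled control. In females Gadd45b, Gadd45g, Btg2 and Trp53inp1 climb with Cdkn1a (Pearson r 0.90, 0.82, 0.81 and 0.80 over 15 libraries), Gadd45a falls (-0.73), and Mdm2, Ccng1 and Sesn1 lie flat (0.02, -0.06 and 0.15).

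Whether p21 moved with the other genes was described by the Pearson correlation of log2 CPM with Cdkn1a over the 15 libraries of a sex, which share 5 groups of 3 and their libraries' depth and scaling. The female values describe the libraries in which Cdkn1a, Btg2 and Gadd45g had been seen to be high, so for Btg2 and Gadd45g they restate that choice and support nothing. Gadd45b had r = 0.90 and ranked 7 among 13873 genes, Gadd45g had 0.82 at rank 56, Btg2 0.81 at rank 66 and Trp53inp1 0.80 at rank 76. Sesn1 (0.15), Mdm2 (0.02), Ccng1 (-0.06) and Phlda3 (-0.23) lay near the middle of all genes, whose quartiles were -0.28 and 0.24. Gadd45a lay near the bottom, at -0.73 and rank 13752. Rank correlations gave the same division, with 0.90 for Gadd45b, 0.74 to 0.76 for Gadd45g, Btg2 and Trp53inp1, and -0.76 for Gadd45a. Over the 12 exposed female libraries, without control, Gadd45g had 0.99, Gadd45b 0.97, Trp53inp1 0.96 and Btg2 0.79, and the same limit holds. All genes spread more widely there, with quartiles of -0.43 and 0.40 and 229 genes above an r of 0.90. On that measure Gadd45g ranked 1, Gadd45b 32, Trp53inp1 37 and Btg2 754.

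In males only Gadd45g among the 9 genes ran closely with Cdkn1a, with r = 0.85 at rank 103 of 13473. Phlda3 had 0.54, Ccng1 0.44, Btg2 0.30, Mdm2 0.09, Trp53inp1 -0.01, Gadd45a -0.09, Sesn1 -0.16 and Gadd45b -0.37. Without the libraries labelled male control, over 12 exposed male libraries, Gadd45g stood at 0.88, the scarce Phlda3 at 0.70, Trp53inp1 at 0.62, Btg2 at 0.55 and Ccng1 at 0.49. Sesn1 was at 0.08, Gadd45a at 0.02 and Mdm2 at -0.17, while Gadd45b stayed at -0.41. The quartiles of all genes on that measure were -0.32 and 0.33. In males 80.7% of all genes had a higher r than Gadd45b over the 15 libraries, and 40.2% had a higher r than Mdm2. The correlations describe the groups as much as single animals, and no test was made of them.

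**Figure D4:**
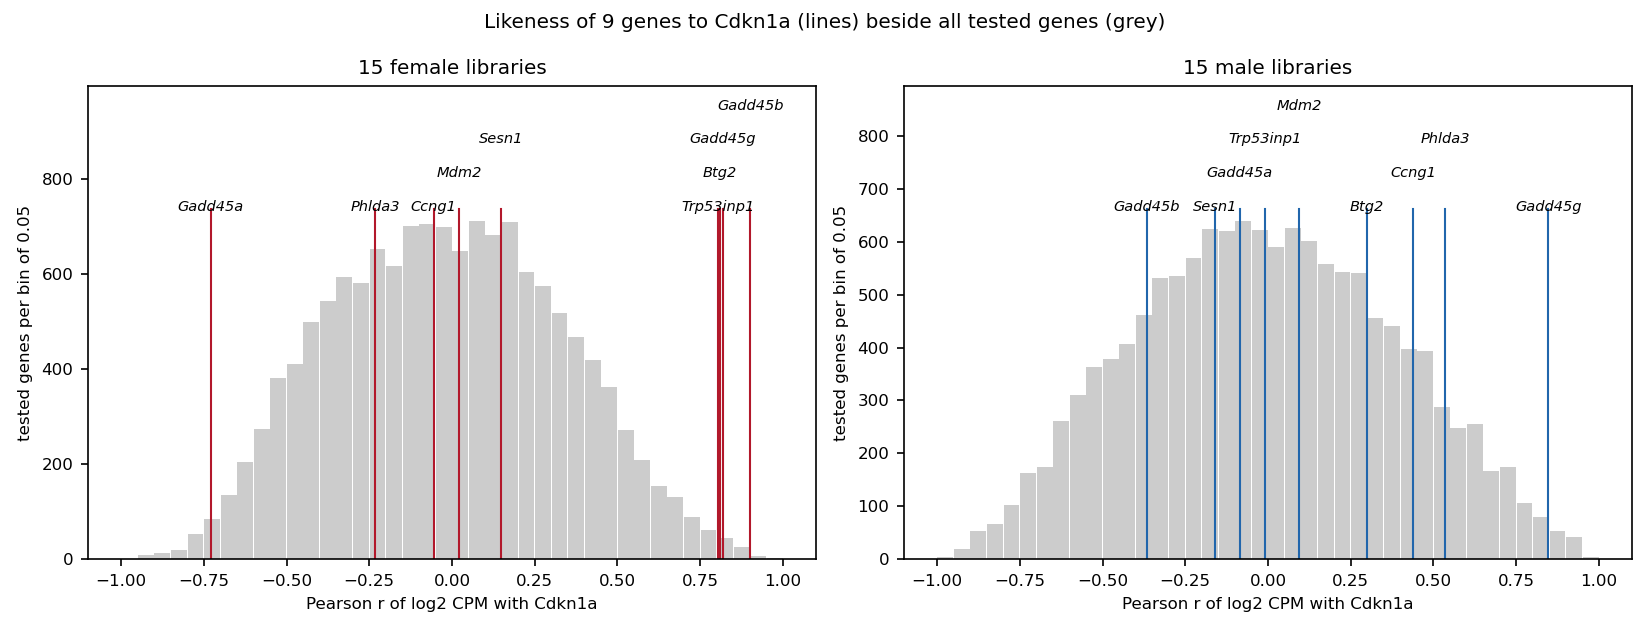
Pearson r of log2 CPM with Cdkn1a over 15 female (left) and 15 male (right) libraries; grey bars count all tested genes per bin of 0.05, and lines mark the 9 other genes. In females 4 lines lie at 0.80 to 0.90 and 1 at -0.73, and in males only Gadd45g lies above 0.80.

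A wider list of 38 other p53 target genes, of which 36 were tested in each sex, was counted in the same way. Called members in females were 5 higher and 4 lower under 2,4-BPS, 7 higher and 7 lower under BPSIP, 3 higher and 2 lower under BPS and 7 higher and 1 lower under E2. The shares called were 25%, 38.9%, 13.9% and 22.2%, beside 19.3%, 38.6%, 16.8% and 21% of all genes, and the median log2 fold changes were 0.02, 0.03, -0.01 and 0.01. The median of all genes lay between -0.01 and 0.00. The largest called changes lay under BPSIP for Dram1 and Tap1 and under E2 for Cgref1, the exposures with the lowest and the highest female Cdkn1a. Dram1, a lysosomal regulator of autophagy, had 12.2 ± 0.786 CPM against 2.67 ± 0.33 CPM, log2 fold change 2.19 ± 0.21, in BPSIP females and control. Tap1, a peptide transporter of antigen presentation, had 64 ± 2.42 CPM against 27.4 ± 1.9 CPM, log2 fold change 1.22 ± 0.08, in the same groups, and Cgref1 had 2.52 ± 0.398 CPM against 0.99 ± 0.163 CPM, log2 fold change 1.34 ± 0.37, in E2 females and control. Fas, a death receptor gene, and Bax, a proapoptotic gene, were picked out after their values were seen: Fas had 0.21 ± 0.09, 0.23 ± 0.09, 0.39 ± 0.09 and 0.46 ± 0.09 in females under 2,4-BPS, BPSIP, BPS and E2, of which all but the 2,4-BPS value were called, and Bax had 0.05, 0.25, 0.03 and 0.27, each with a standard error of 0.11 and not called. Male Fas values against the labelled control were 0.42 and 0.27 under 2,4-BPS and E2, both called, and -0.02 and 0.11 under BPSIP and BPS, not called. In males 6 higher and 6 lower, 4 higher and 5 lower, 6 higher and 7 lower and 6 higher and 4 lower were called in the same order of exposures, 33.3%, 25%, 36.1% and 27.8% of the list, beside 38.2%, 34.9%, 43.2% and 33.6% of all genes, with medians between -0.06 and 0.06. Tap1 (-1.16 ± 0.11 under BPS), Pmaip1, which encodes the proapoptotic protein Noxa (-1.11 ± 0.44 under 2,4-BPS), and Dram1 (-1.09 ± 0.33 under BPSIP) were lower than in the labelled control.

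The level of the p53 gene itself, Trp53, was read too. Group means were 16.7 ± 2.46, 21.5 ± 1.55, 17.3 ± 1.17 and 20.6 ± 0.60 CPM in females of the 2,4-BPS, BPSIP, BPS and E2 groups, and 18.2 ± 1.3 CPM in control (SD, n = 3). Its largest female value against control was 0.24 ± 0.10 under BPSIP (edgeR adjusted p = 0.0445), and under E2 it was 0.18 ± 0.10, which did not pass. Males of the 4 exposures had 19.96 ± 0.816, 17.7 ± 1.26, 20.7 ± 3.4 and 18.1 ± 1.81 CPM, and the labelled control had 15.2 ± 0.569 CPM. Against it Trp53 was higher by 0.39 ± 0.10 under 2,4-BPS, 0.43 ± 0.10 under BPS and 0.26 ± 0.11 under E2. These values take the libraries that go against their label in part as the baseline, and none without them is given for Trp53, so a rise over an unexposed level is not shown. Of 17 regulators of p53 tested in females, 4, 6, 1 and 2 were called under the 4 exposures, 23.5%, 35.3%, 5.88% and 11.8% of them, beside 19.3%, 38.6%, 16.8% and 21% of all genes. In males 50%, 50%, 56.2% and 50% of 16 were called against the labelled control, beside 38.2%, 34.9%, 43.2% and 33.6% of all genes. The 6 male pairs of exposures, which leave that control out, called 12.5% to 62.5% of them, beside 26.4% to 37.5% of all genes. Atm, the kinase that signals DNA breaks, was lower in BPS females (10.6 ± 0.877 CPM against 15.7 ± 0.0178 CPM, log2 fold change -0.55 ± 0.12). Transcript levels do not report the amount or activity of the p53 protein.

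**Figure D5:**
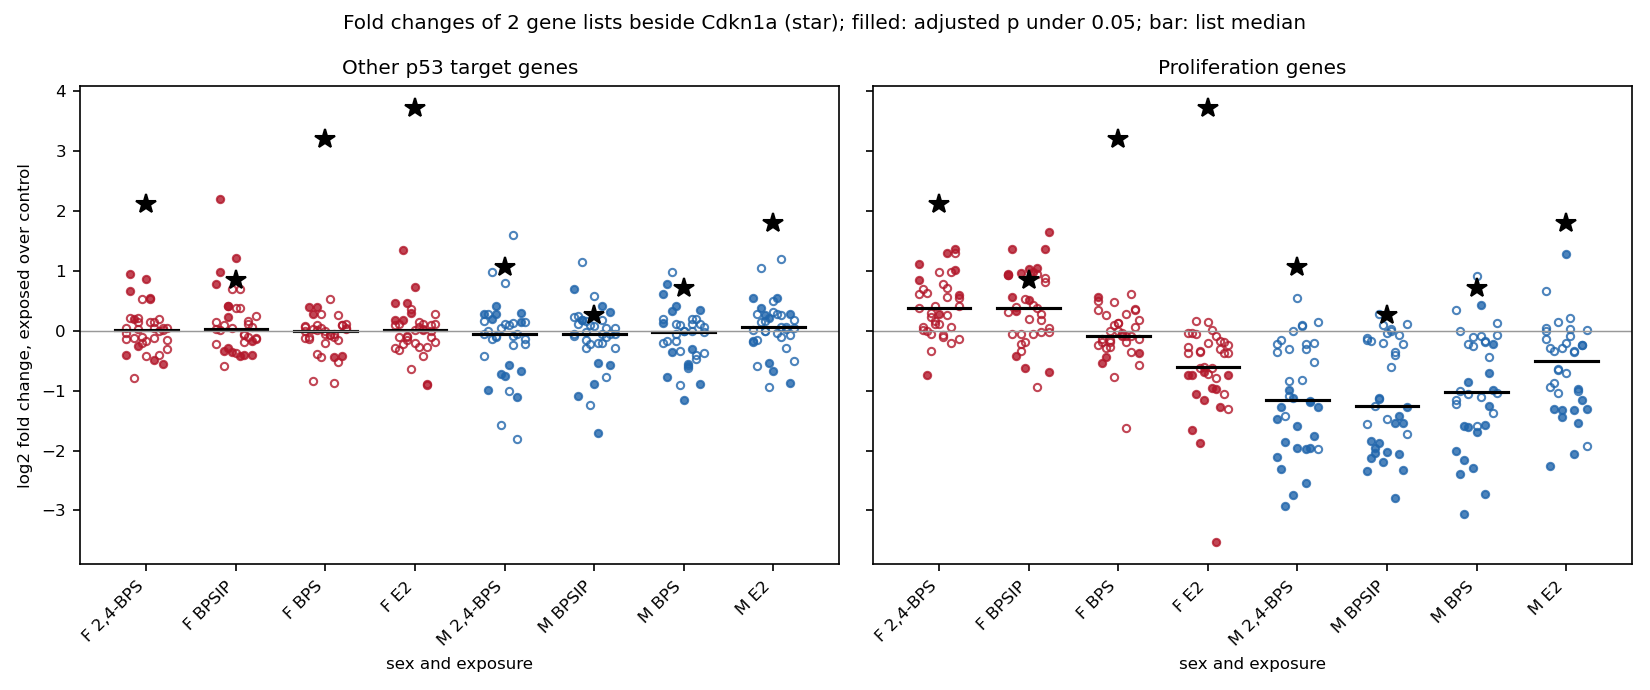
Log2 fold change of other p53 target genes (left) and proliferation genes (right) in 8 exposed groups over the libraries labelled control of the same sex; filled points passed an adjusted p of 0.05, bars are list medians and stars mark Cdkn1a. The p53 targets centre on 0 in every group, with medians of -0.06 to 0.06.

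Proliferation genes were read beside p21, since p21 halts the cell cycle. Of 37 tested in females, 7 higher and 1 lower were called under 2,4-BPS, 12 higher and 3 lower under BPSIP, 1 higher and 3 lower under BPS and 0 higher and 12 lower under E2, with medians of 0.37, 0.37, -0.08 and -0.61. The shares called were 21.6%, 40.5%, 10.8% and 32.4%, beside 19.3%, 38.6%, 16.8% and 21% of all genes. Mki67, which marks dividing cells, had 8.53 ± 1.16, 10.8 ± 0.634, 5.36 ± 0.698 and 3.27 ± 0.743 CPM in these 4 groups, against 4.22 ± 0.437 CPM in control. Group means of both Cdkn1a and Mki67 were higher in 2,4-BPS, BPSIP and BPS females than in control females. Under BPS the list as a whole did not go with Mki67, as its median was -0.08, with 1 gene called higher and 3 lower. Among the exposed groups the order of Mki67 was the reverse of that of Cdkn1a. The called genes with the largest changes were Birc5, the mitotic protein survivin, under E2 (-1.87 ± 0.44), Mcm5, a subunit of the replicative helicase, under BPSIP (1.65 ± 0.20), and E2f2, a cell cycle transcription factor, under BPSIP (1.37 ± 0.39). In males 0 higher and 18 lower, 0 higher and 16 lower, 1 higher and 15 lower and 1 higher and 11 lower of 36 were called against the labelled control, with medians of -1.15, -1.26, -1.02 and -0.50. The male shares were 50%, 44.4%, 44.4% and 33.3%, beside 38.2%, 34.9%, 43.2% and 33.6% of all genes. These male values all take the libraries that go against their label in part as the baseline. In the 6 male pairs of exposures, which leave those libraries out, 13.9% to 25% of the list was called, beside 26.4% to 37.5% of all genes. In exposed males Mki67 had 0.831 ± 0.319, 1.54 ± 0.333, 1.44 ± 0.731 and 2.55 ± 0.399 CPM, against 6.37 ± 1.08 CPM in the labelled control. Among exposed males it was highest in the E2 group, which also had the most Cdkn1a. Of the other inhibitors of cyclin-dependent kinases, 7 were tested in females, and the 1, 2, 2 and 1 calls in the order of exposures were all lower, 14.3%, 28.6%, 28.6% and 14.3% of the list beside the same shares of all genes. Cdkn2c was lower under BPSIP (-0.66 ± 0.14), as was Cdkn1c (-0.73 ± 0.22).

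Relatives of the 10 genes in their own families were counted too. Phlda1, a relative of Phlda3, had 55.7 ± 1.27, 27.9 ± 1.56, 43.8 ± 2.89 and 69.1 ± 5.57 CPM in females, against 28.9 ± 2.46 CPM in control, and was highest under E2 (1.25 ± 0.07). Ccng2, a relative of Ccng1, was lower in BPSIP females (7.22 ± 1.12 CPM against 13.9 ± 0.614 CPM, log2 fold change -0.94 ± 0.11) and in BPS males (-1.09 ± 0.11 against the labelled control). Sesn3 was lower in BPS females (-0.64 ± 0.20). Of 9 relatives tested, 3, 0, 4 and 3 were higher in females in the order of exposures and 1, 5, 1 and 0 lower. The shares called were 44.4%, 55.6%, 55.6% and 33.3%, beside 19.3%, 38.6%, 16.8% and 21% of all genes. In males the shares were 55.6%, 44.4%, 100% and 44.4%, beside 38.2%, 34.9%, 43.2% and 33.6%, and in BPS males 1 was higher and 8 were lower than in the labelled control.

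Other programmes moved in the same libraries, and their part in the Cdkn1a levels was not tested. In E2 females 4 higher and 15 lower of 21 clock genes were called, with Arntl, the clock activator also called Bmal1, at 19.6 ± 0.305 CPM against 2.88 ± 0.315 CPM, log2 fold change 2.76 ± 0.14, and Dbp, a clock output, at 10.9 ± 1.11 CPM against 105 ± 1.1 CPM, log2 fold change -3.28 ± 0.08,, each E2 against control. Clock calls were 7 higher and 4 lower, 3 higher and 11 lower and 9 higher and 8 lower in the other 3 female exposures. The female shares were 52.4%, 66.7%, 81% and 90.5% in the order of exposures, beside 19.3%, 38.6%, 16.8% and 21% of all genes. Male clock calls made up 95.2%, 81%, 90.5% and 81% of the list, beside 38.2%, 34.9%, 43.2% and 33.6% of all genes. E2 males gave 5 higher and 12 lower against the labelled control, with Arntl at 22.7 ± 1.23 CPM against 3.36 ± 0.802 CPM. Of 22 genes of fasting, glucocorticoid and FOXO signalling, 7 higher and 8 lower were called in 2,4-BPS females, 2 higher and 19 lower in BPSIP females, 15 higher and 1 lower in BPS females and 11 higher and 5 lower in E2 females, or 68.2%, 95.5%, 72.7% and 72.7% of the list. The male counts against the labelled control were 2 higher and 16 lower under 2,4-BPS, 7 higher and 10 lower under BPSIP, 4 higher and 17 lower under BPS and 5 higher and 7 lower under E2, or 81.8%, 77.3%, 95.5% and 54.5%. The fasting-induced gene Igfbp1 had 7.11 ± 0.696 CPM against 77.5 ± 3.29 CPM, log2 fold change -3.45 ± 0.07, in BPSIP females and control. Immediate early genes gave 2 higher and 5 lower, 8 higher and 8 lower, 8 higher and 3 lower and 7 higher and 2 lower of 24 in females, 29.2%, 66.7%, 45.8% and 37.5% of the list, with Myc, a growth regulator, at 23.4 ± 0.642 CPM against 5.7 ± 0.491 CPM, log2 fold change 2.03 ± 0.12, in E2 females and control. Fos reached 33.2 ± 4.18 CPM in BPSIP males, against 1.32 ± 1.1 CPM in the labelled control. Summed markers of Kupffer cells, the liver macrophages, were 1517 to 1621 CPM, 1636 to 1858 CPM, 1037 to 1116 CPM and 968 to 1025 CPM in females of the 4 exposures, against 1108 to 1162 CPM in control females. Exposed males lay at 564 to 732 CPM, against 939 to 1015 CPM in the libraries labelled male control. Neutrophil markers summed to 25.1 to 30.4 CPM, 57.6 to 74.1 CPM, 17.9 to 20.7 CPM and 27 to 31.1 CPM in females of the 4 exposures, against 34.7 to 44.7 CPM in control females. In males they summed to 12.8 to 19.2 CPM, 5.67 to 10.2 CPM, 17.6 to 21.2 CPM and 43 to 46.7 CPM, against 6.93 to 15.4 CPM in the labelled control. All 9 Kupffer and all 8 neutrophil genes were detected.

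By likeness to Cdkn1a over all tested genes with a mean of at least 1 CPM, the 5 nearest in females were Sult3a2 (r = 0.96), Cpox (0.96), Sult3a1 (0.95), Plk3 (0.92) and Socs2 (0.92). Sult3a1 and Sult3a2 encode female-biased sulfotransferases, neighbours alike in sequence whose reads may be shared, Cpox an enzyme of haem synthesis, Plk3 a stress kinase and Socs2 an inhibitor of growth hormone signalling. Socs2 had 33.9 ± 1.61, 18 ± 2.3, 55.2 ± 2.43 and 53.3 ± 4.22 CPM in females of the 4 exposures, against 22 ± 1.44 CPM in control. Plk3 had 30.3 ± 1.86, 26 ± 1.54, 42.9 ± 2.08 and 45.2 ± 5.65 CPM, against 26.2 ± 0.721 CPM in control. In males the 5 nearest were others: Agpat2 (r = 0.97), an enzyme of triglyceride synthesis, Lrg1 (0.97), an acute-phase glycoprotein, Stra6l (0.96), a retinol-binding protein receptor, Apon (0.96) and Caprin1 (0.95), an RNA-binding protein. Lrg1 had 581 ± 36.9, 352 ± 11.6, 515 ± 14.1 and 1128 ± 55.9 CPM in exposed males, against 303 ± 5.24 CPM in the labelled control. Over 15 libraries, 8 genes exceeded an r of 0.90 in females and 45 in males.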

How the data were processed

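The authors' deposited gene counts of 30 liver libraries were used, with their FPKM values, which equal the counts scaled by library total and gene length to a relative deviation of at most 3.46e-06. Per the submitters' processing notes the tools were HISAT2, HTSeq, DESeq2 and R 3.2.0; for the genome build and for strandedness, nothing is given in the sources used here, so reads of overlapping antisense genes cannot be told apart. From the counts, edgeR 4.0.16 in R 4.3.3 was fitted to the 15 libraries of a sex, or to all 30 for sex comparisons, after filterByExpr (13874, 13474 and 14131 genes), with TMM factors (0.939 to 1.12) and the robust quasi-likelihood test. P-values were two-sided and adjusted by Benjamini-Hochberg over all genes of a fit, with a threshold of 0.05. CPM use the kept counts and TMM factors, and correlations use log2 CPM with 2 counts added. The common coefficient of biological variation was 0.0915 in females and 0.0873 in males. Libraries held 29711711 to 37719069 counts, and Phlda3 had the fewest of the 10 genes (9 to 62).

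The genes and lists were chosen with earlier results of these data known. Named genes are the members and, per list and sex, the called genes with the largest changes at a mean of at least 1 CPM. Alternatives were DESeq2 1.42.0, RLE factors, no filter, other sets of libraries and leaving out each library. The pipeline was tested on simulated data. Replicate numbers were not treated as pairs.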

Additional observations from a re-analysis of the deposited data

Results flagged for a closer look

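For 17 values the female effect of an exposure against control differed from the male one in the test of that difference (edgeR, all 30 libraries). They contain the female values against control that chose the genes, which favours a larger female effect. All take the libraries labelled male control as the male baseline, and the report gives the Cdkn1a values without either control group. For Cdkn1a the differences, female minus male on the log2 scale, were 1.05 under 2,4-BPS, 0.59 under BPSIP, 2.47 under BPS and 1.95 under E2. The BPSIP one missed the threshold without male BPSIP library 3 (0.46, edgeR adjusted p = 0.0515). Btg2 differed by 0.64 under 2,4-BPS and 2.53 under BPS. Gadd45b differed by 1.21 under 2,4-BPS and 1.98 under E2. Gadd45g differed by -0.75 under 2,4-BPS, -0.38 under BPSIP, 0.75 under BPS and 0.51 under E2, and the BPSIP value was lost without female control library 1 or 3 or female BPSIP library 1 or 2 or male control library 1 or 2 or male BPSIP library 2 or 3 (-0.37 to -0.24). Trp53inp1 differed by 0.76 under 2,4-BPS, 1.75 under BPS and 0.89 under E2. Sesn1 differed by 0.82 under 2,4-BPS and Ccng1 by 0.34 under BPSIP. With each exposure set against the mean of the other 3 in both sexes, without control, Gadd45g gave -1.04, -0.55, 0.95 and 0.64 in the order of exposures, Gadd45b 0.65 under 2,4-BPS, Sesn1 0.60 under 2,4-BPS, Ccng1 0.42 under BPSIP and Trp53inp1 0.00 under E2. Btg2 and Trp53inp1 under 2,4-BPS changed sign there, with -0.31 and -0.17. Under BPS they had 2.21 and 1.15, and Gadd45b under E2 had 1.67.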

How the results depend on the processing

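Counts of calls over the 10 genes stayed within 1.5 times the reported ones under every alternative run. With 1 library left out at a time they ran from 15 to 20 for females against control, 15 to 19 for males against the labelled control, 32 to 38 for female pairs, 28 to 35 for male pairs, 16 to 18 for sex differences of effects and 23 to 26 for sex differences of levels. Over all refits without a library, called single values missed the threshold 107 times. A value is counted again there for each refit in which it missed. Gadd45b in 2,4-BPS females also missed it under RLE factors, without the filter, with all 30 libraries and with the groups alone (0.44 to 0.45). So did Btg2 for 2,4-BPS minus E2 in females without the filter, with all 30 libraries and with the groups alone (-0.28), and Gadd45b for 2,4-BPS minus BPS in females with all 30 libraries (-0.46). Ccng1 in BPSIP females missed it by DESeq2 (0.19), Sesn1 in 2,4-BPS males by DESeq2 and with the groups alone (-0.30), and Trp53inp1 in E2 males by DESeq2 and with all 30 libraries (-0.15 and -0.16). Between the sexes, Gadd45g missed it for the effect of BPSIP with the groups alone (-0.38) and for the level under BPS without the filter and by DESeq2 (-0.21 and -0.22).

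The replicate block gave counts of 18, 18, 35, 33, 17 and 25 in the same order. Under the block the edgeR adjusted p was 0.0528 for Gadd45b in 2,4-BPS females, 0.0530 for Ccng1 in BPSIP females and 0.0621 for Btg2 in 2,4-BPS minus E2 females, so these missed the threshold. Libraries of the same number did not deviate together (mean correlation -0.03 in each sex), and 1 of 15 libraries per sex correlated best with its own number, so the numbers do not pair the animals.

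The settings that left out the labelled control were the ones that turned values round. Against the other 3 exposed male groups, Cdkn1a under BPS was -0.33, Gadd45g under BPS -0.016 and Trp53inp1 under E2 0.67. With each exposure against the other 3 in both sexes, which was chosen after seeing the data and is another quantity, 23 sex differences were called, 10 higher and 13 lower, in place of 17, 15 higher and 2 lower. There Cdkn1a was -0.62 under 2,4-BPS and -1.23 under BPSIP, Btg2 -0.31 and Trp53inp1 -0.17 under 2,4-BPS. Over all genes that setting called 28%, 41.7%, 29.3% and 30.4% in the order of exposures, with 4299 genes for E2 in place of 2389. The 12 exposed male libraries alone, also chosen after seeing the data, gave 35 calls in male pairs, 12 higher and 23 lower. Beside them 26.6% to 37.7% of all genes were called in the single pairs.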
